A study of Mus musculus with 1016 samples.

Results

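The Hox clusters are 4 tight rows of homeobox genes, and 38 of their genes were described here out of 20806 protein-coding genes on chromosomes 1 to 19. The members were taken by name, 10 genes of Hoxa, 10 of Hoxb, 9 of Hoxc and 9 of Hoxd, and the rule uses no measured value. Single-cell Repli-seq reads the copy number of each stretch of the genome in a cell that is copying its DNA, and the deposited tables give for every cell a state of replicated or not replicated in bins of 50 kb. Of 49264 such bins, 14 overlapped a cluster. Hoxa had 3 bins (GRCm38 chr6:52150001-52300000), Hoxb 5 (chr11:96150001-96400000), Hoxc 3 (chr15:102900001-103050000) and Hoxd 3 (chr2:74650001-74800000), and 13 of the 14 overlapped a Hox gene of the list. Up to 1 Mb on either side was taken along for comparison.

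Hox genes encode homeodomain transcription factors that give cells of the embryo their position along the head to tail axis. Within a cluster the genes stand in the order in which they are used, with anterior genes such as Hoxd1 at the 3′ end and the paralogue group 13 genes, which pattern the tail, digits and genital region, at the 5′ end. In embryonic stem cells the clusters are held silent under Polycomb proteins, they are rich in CpG and poor in repeats, and in most cell types such sequence is copied early in S phase.

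The sequence of the clusters was set beside the timing because base composition is the property of a bin that these cells all share. The promoters of the group 13 genes are shown for Hoxa and Hoxd, and those of Hoxb4 and Hoxc4, chosen after their values were seen, stand in for Hoxb13 and Hoxc13. Each is the 250 bases just before the transcription start in RefSeq (GRCm38.p6), written 5′ to 3′ on the strand of the gene, with the dinucleotide CG in capitals. CG reads the same on both strands.
Hoxa13 (chr6:52260881-52261130, minus strand): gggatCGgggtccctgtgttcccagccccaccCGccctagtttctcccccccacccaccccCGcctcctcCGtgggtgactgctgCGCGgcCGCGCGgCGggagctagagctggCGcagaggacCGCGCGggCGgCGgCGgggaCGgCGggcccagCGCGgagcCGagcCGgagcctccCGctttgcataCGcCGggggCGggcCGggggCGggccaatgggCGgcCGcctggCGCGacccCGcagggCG
Hoxd13 (chr2:74667975-74668224, plus strand): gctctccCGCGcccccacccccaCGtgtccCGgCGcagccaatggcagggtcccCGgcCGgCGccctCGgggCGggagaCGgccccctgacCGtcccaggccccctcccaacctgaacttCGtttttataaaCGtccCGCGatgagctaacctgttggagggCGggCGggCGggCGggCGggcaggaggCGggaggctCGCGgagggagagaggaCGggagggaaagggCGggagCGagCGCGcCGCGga
Hoxb4 (chr11:96318017-96318266, plus strand): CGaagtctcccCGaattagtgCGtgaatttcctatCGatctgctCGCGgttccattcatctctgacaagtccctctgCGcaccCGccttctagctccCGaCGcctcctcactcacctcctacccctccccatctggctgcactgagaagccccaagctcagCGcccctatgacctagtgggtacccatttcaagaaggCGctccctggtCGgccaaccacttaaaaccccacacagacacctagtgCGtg
Hoxc4 (chr15:103034145-103034394, plus strand): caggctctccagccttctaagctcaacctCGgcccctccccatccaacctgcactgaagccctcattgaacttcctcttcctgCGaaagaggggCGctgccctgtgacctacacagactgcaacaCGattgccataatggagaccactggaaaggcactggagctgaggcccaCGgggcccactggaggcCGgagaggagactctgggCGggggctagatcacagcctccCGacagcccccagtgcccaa
Hoxa13 held 35 CG in 250 bases and Hoxd13 held 31, against 14 for Hoxb4 and 8 for Hoxc4. The median over 32841 promoters of the same length was 6, and 92.1% of them held at least 1. Over the 24 promoters matched to 22 of the 38 genes, CG counts ran from 2 to 35 with a median of 12.5, and 19 lay above the median of all promoters. The whole clusters were dense in CG among bins too. Hoxa had 25.3 CG per kb, Hoxd 23.8, Hoxc 18.9 and Hoxb 18.3, above 98.6% to 99.9% of all bins, where the median was 7.78. Soft-masked repeats made up 17.6% of Hoxa, 17.5% of Hoxc, 18.7% of Hoxd and 26.2% of Hoxb, against a median of 31%.

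The study asked when replication timing takes shape in the mouse embryo, and 733 of 1016 labelled samples had states. Of these, 661 cells with 10 to 90% of their bins replicated (the replication score) were used. Natural embryos were (C57BL/6J x CBA) x DBA/2J and comprised 53 zygotes at 20 to 26 h after hCG, 54 cells of 2-cell embryos at 32 to 40 h, 50 of 4-cell embryos at 50 to 56 h, 49 of 8-cell embryos at 66 to 72 h, 34 of 16-cell embryos at 77 to 80 h, 44 of morulae at 90 to 96 h and 70 of the inner cell mass (ICM) at 96 to 104 h. The one-cell groups included 56 IVF zygotes of the same cross from 5.5 h after insemination on. They also included 49 parthenotes from (C57BL/6J x CBA)F1 oocytes at 5.5 to 12 h after activation with 10 mM Sr2+ for 2 h. Pronuclei were 20 maternal ones, from (C57BL/6J x CBA)F1 females, and 17 paternal ones, from DBA/2J males, both at 21 to 25 h after hCG. The study exchanged pronuclei whose reads pointed to the other parent and excluded IVF zygotes found to be parthenogenetic. Whether the deposited labels carry these changes was not checked. Treated 2-cell embryos had the cross of the natural ones and were exposed to 0.1 mg/mL alpha-amanitin (42 cells, 34 to 39 h) or 100 uM DRB (67 cells, 34 to 40 h) from 17 h after hCG, which block RNA polymerase II or its elongation, or were injected at 18 h with 2 ug/uL mRNA of Kdm5b, a demethylase of H3K4me3 (56 cells, 34 to 40 h).

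Parthenotes carry maternal chromosomes alone. Blastomeres carry no embryo or litter label, so the cells of a group were held as 1 sample. Genomic DNA was measured, so the labelled cell types could not be checked against marker genes. Each cell used had states for 42946 to 46523 bins. Collections stood apart from the other hours of their stage at 72 h (8-cell embryos, 11 cells) and at 77 h (16-cell embryos, 5 cells). At 72 h 2 of 11 cells had Hoxb replicated at a mean score of 42.9%, and at 77 h 1 of 5 had Hoxb and 1 of 5 Hoxc replicated at a mean score of 37.3%. Cluster levels of these stages, the spread between clusters and the stage trend are given with and without these cells. Single clusters differed at other hours too, such as Hoxb in 2-cell embryos at 39 and 40 h.

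Timing is given as the RT value, which runs from 0 for a bin replicated in no cell to 1 for a bin replicated in every cell, averaged over windows of replication score so that groups sampled at different points of S phase can be set side by side. A cluster value is the mean of its bins. Beside it stands the number of cells with most of the cluster replicated, with an exact 95% binomial interval (Clopper-Pearson). Such intervals cover counting error only, not the spread between embryos.

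All 4 clusters replicated ahead of the typical bin in nearly every group. Hoxa lay above the median bin in 14 of 14 groups, Hoxc and Hoxd in 13 and Hoxb in 12. The exceptions were Hoxb in 2-cell embryos (0.493) and IVF zygotes (0.544), Hoxc after alpha-amanitin (0.422) and Hoxd in 16-cell embryos (0.515). Most cluster values also lay above the median of bins with their GC content (43.7 to 51.5%), but more fell below it. Among these were Hoxc after DRB (0.605 against 0.617) and Kdm5b mRNA (0.545 against 0.558) and Hoxa in paternal pronuclei (0.559 against 0.597). Of the 38 genes, all had an RT of 0.5 or more in 12 of the 14 groups, and 29 did in 2-cell embryos, where 9 of the 10 Hoxb genes were later, and 29 after alpha-amanitin, where the 9 Hoxc genes were later. Among all protein-coding genes that share ran from 44.8% after alpha-amanitin to 82% in morulae. The margin of the Hox genes was not constant. Their median was 0.643 against 0.563 for all genes in zygotes and 0.645 against 0.573 in the ICM, but 0.704 against 0.733 in morulae, where 19 of 38 lay above the median of all genes.

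**Figure D1:**
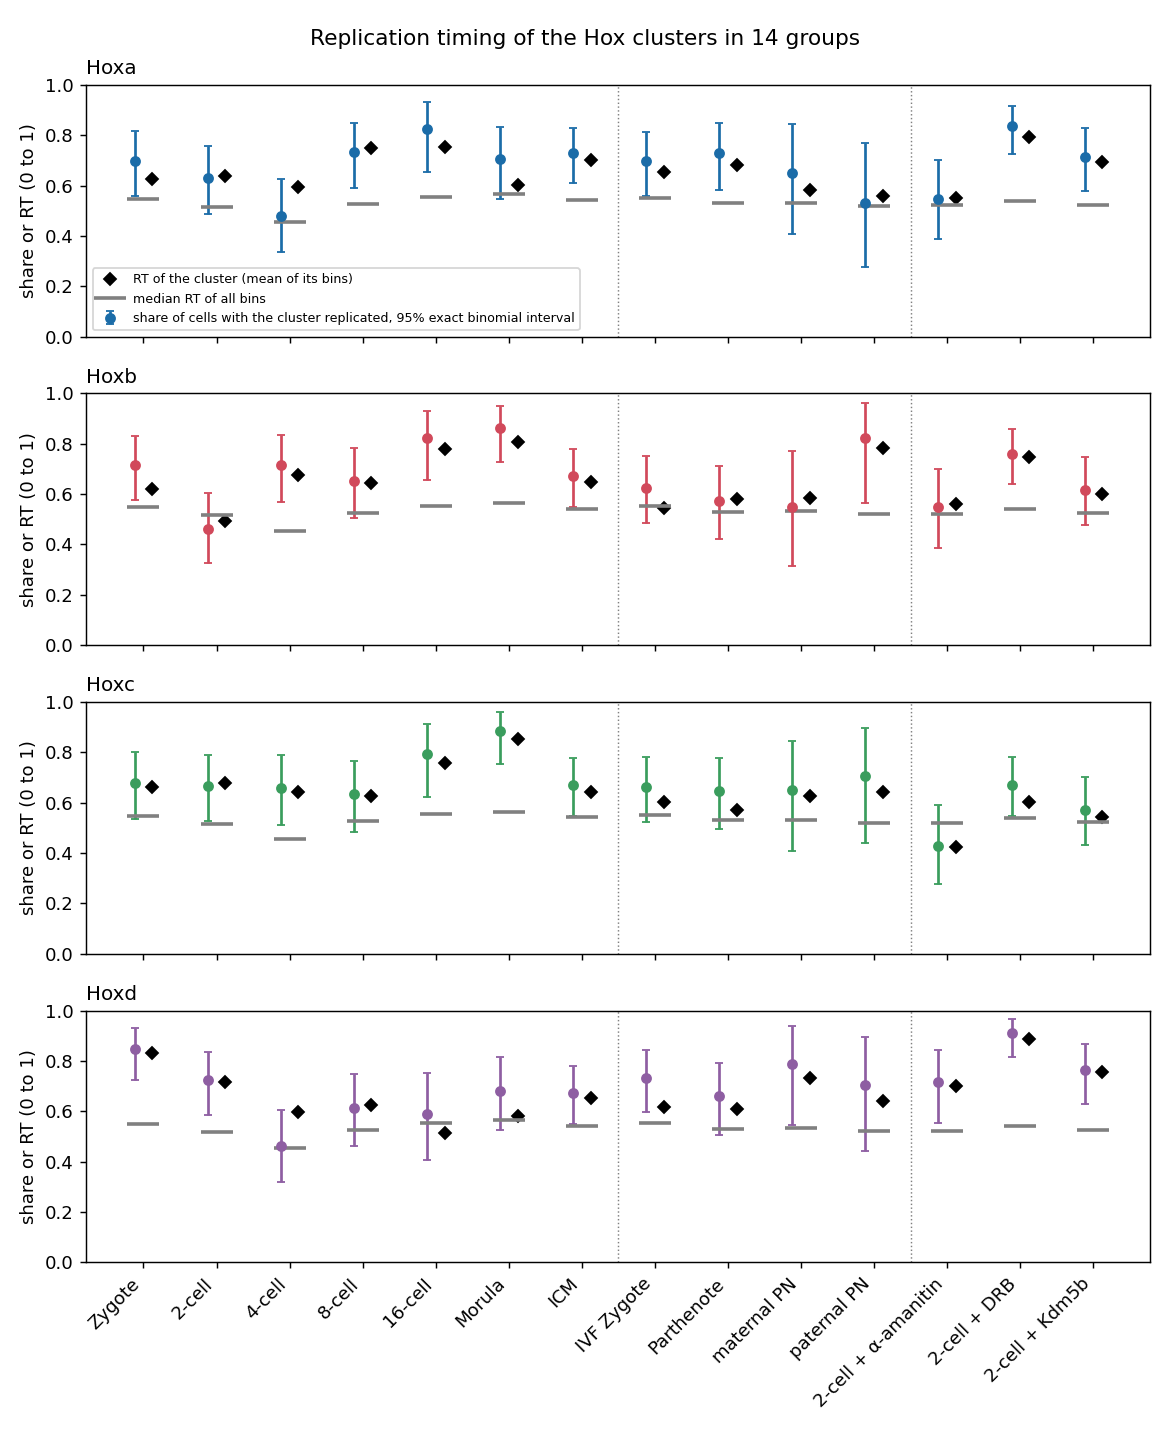
Timing of the Hox clusters in the 14 groups, with natural stages left, other one-cell groups in the middle and treated 2-cell embryos right. Coloured points are the share of cells with the cluster replicated and bars the exact 95% binomial interval, black diamonds are the RT of the cluster and grey dashes the median RT of all bins. Hoxd is highest in zygotes (0.831) and after DRB (0.887), Hoxb and Hoxc in morulae (0.808 and 0.852).

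Hoxd, the cluster that patterns limbs and genitalia, was the earliest of the 4 in zygotes and the latest in morulae. Its RT was 0.831 in zygotes, 0.715 in 2-cell, 0.598 in 4-cell, 0.625 in 8-cell and 0.515 in 16-cell embryos, 0.581 in morulae and 0.651 in the ICM. In zygotes it lay above 99.6% of all bins, in morulae above 51.7%. The cluster was replicated in 45 of 53 zygotes (interval 72.4 to 93.3%), in 23 of 50 4-cell cells (31.8 to 60.7%), in 20 of 34 16-cell cells (40.7 to 75.4%) and in 30 of 44 morula cells (52.4 to 81.4%). The intervals of zygotes and 4-cell cells do not overlap, but their mean replication scores were 56.5 and 40.8%, and those of zygotes and morulae overlap. All 3 Hoxd bins were later in morulae than in zygotes by 0.2 or more, with a cluster difference of −0.250, and Hoxd10 differed most of the 38 genes (−0.261). Without the cells of 77 h the 16-cell value was 0.476, and without those of 72 h the 8-cell value was 0.668. In the ICM cells of 96 to 100 h alone it was 0.671.

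Hoxb, whose members include the hindbrain gene Hoxb1 and the remote Hoxb13, was the latest of the 4 in zygotes and 2-cell embryos. In morulae it stood behind Hoxc alone. Its RT was 0.619 in zygotes, 0.493 in 2-cell, 0.677 in 4-cell, 0.645 in 8-cell and 0.778 in 16-cell embryos, 0.808 in morulae and 0.648 in the ICM. The cluster was replicated in 25 of 54 2-cell cells (32.6 to 60.4%) and in 38 of 44 morula cells (72.6 to 94.8%), and these intervals do not overlap, at mean replication scores of 49.3 and 57.1%. The difference of morulae from 2-cell embryos was 0.315. The 16-cell value was 0.937 without the cells of 77 h and the 8-cell value 0.760 without those of 72 h, so that the order of 16-cell embryos and morulae turned over. In ICM cells of 96 to 100 h it was 0.763.

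Hoxc, whose genes act in the trunk and skin, was the earliest cluster of morulae. Its RT was 0.663, 0.677, 0.640 and 0.625 from zygotes to 8-cell embryos, 0.757 in 16-cell embryos, 0.852 in morulae and 0.641 in the ICM. It was replicated in 39 of 44 morula cells (75.4 to 96%) and in 47 of 70 ICM cells (54.9 to 77.9%). The 16-cell value was 0.913 without the cells of 77 h and the 8-cell value 0.656 without those of 72 h. The ICM value was 0.749 in the 33 cells of 96 to 100 h and 0.573 in the 37 cells collected later, so the distance from morulae depended on the collection.

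Hoxa, which includes the limb gene Hoxa13 and the hindbrain gene Hoxa2, had the narrowest range over the 7 stages. Its RT was 0.625 in zygotes, 0.639 in 2-cell, 0.593 in 4-cell, 0.750 in 8-cell and 0.754 in 16-cell embryos, 0.602 in morulae and 0.701 in the ICM. It was 0.837 in 16-cell embryos without the cells of 77 h and 0.784 in 8-cell embryos without those of 72 h. The ICM cells of 96 to 100 h had 0.803 and those collected later 0.652. The cluster was replicated in 24 of 50 4-cell cells (33.7 to 62.6%), in 28 of 34 16-cell cells (65.5 to 93.2%) and in 31 of 44 morula cells (54.8 to 83.2%). Intervals of 4-cell and 16-cell cells do not overlap, at mean scores of 40.8 and 57.2%, while those of 16-cell and morula cells do. Hoxa in morulae lay above 54.2% of bins, and Hoxa and Hoxd were both later there than the median bin of like base composition. Over 13896 bins with the GC content of the cluster bins (43.7 to 51.5%) that median was 0.743.

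The spread between the clusters was wide in some stages and narrow in others. It was 0.211 in zygotes, 0.222 in 2-cell, 0.084 in 4-cell, 0.125 in 8-cell and 0.263 in 16-cell embryos, 0.271 in morulae and 0.0608 in the ICM. Without the cells of 72 h it was 0.128 in 8-cell embryos, without those of 77 h it was 0.462 in 16-cell embryos, and in ICM cells of 96 to 100 h alone it was 0.131, so the widest stage and the size of the ICM spread depended on these collections. Over all ICM cells the intervals of all 4 clusters overlapped. In morulae Hoxc (75.4 to 96%) and Hoxd (52.4 to 81.4%) lay farthest apart and their intervals overlapped too. All clusters were read in the same cells, and such intervals ignore that pairing, so their overlap does not decide the order. Hoxc was replicated without Hoxd in 11 of 44 morula cells and Hoxd without Hoxc in 2, and the order was not tested. No cluster showed a monotonic trend over the 7 stages that passed a test. By exact two-sided permutation of the stage order, with 8 relations computed and adjustment over the 4 clusters, Pearson's r was −0.67 for Hoxd (p = 0.0960, adjusted p = 0.292), 0.60 for Hoxb (p = 0.146, adjusted p = 0.292), 0.37 for Hoxc (p = 0.412, adjusted p = 0.413) and 0.36 for Hoxa (p = 0.413, adjusted p = 0.413). The exact permutation p of Spearman's rho was 0.20 for Hoxd (rho −0.57, adjusted p = 0.400), 0.110 for Hoxb (rho 0.68, adjusted p = 0.400), 0.713 for Hoxc (rho 0.18, adjusted p = 0.713) and 0.556 for Hoxa (rho 0.29, adjusted p = 0.713). Without zygote and ICM, the stages farthest from the middle of the order, r was −0.76 for Hoxd, 0.93 for Hoxb, 0.78 for Hoxc and 0.18 for Hoxa, and the lowest adjusted p of this exact permutation test was 0.20. Without the cells of 72 h, 77 h and the later ICM, r over the 7 stages was −0.60 for Hoxd, 0.71 for Hoxb, 0.63 for Hoxc and 0.52 for Hoxa, with a lowest adjusted p of 0.205 by exact permutation. The rho of Hoxb was then 0.82 (exact permutation p = 0.0341, adjusted p = 0.137).

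From each stage to the next, few cluster bins differed by 0.2 or more. From zygotes to 2-cell embryos 0 of 14 did, where 2.73% of all bins were earlier and 4.88% later. From 2-cell to 4-cell embryos 2 Hoxb bins were earlier (all bins 6.29% earlier, 9.03% later), and Hoxb7 led the genes with 0.211. From 4-cell to 8-cell embryos 0 of 14 differed (7.67% earlier, 3.39% later). From 8-cell to 16-cell embryos 1 Hoxb bin was earlier (5.51% earlier, 2.98% later). From 16-cell embryos to morulae 0 of 14 differed (2.05% earlier, 3.56% later), and from morulae to the ICM the 3 Hoxc bins were later (13.5% earlier, 14% later). Setting aside the cells of 72 and 77 h and the later ICM cells, Hoxc from 8-cell to 16-cell embryos (0.257), Hoxa from 16-cell embryos to morulae (−0.234) and Hoxa from morulae to the ICM (0.20) reached 0.2, and Hoxc from morulae to the ICM (−0.103) did not. Over the long span from 2-cell embryos to morulae, the 5 Hoxb bins were earlier and 0 cluster bins later, where 24.1% of all bins were earlier and 45.3% differed in either direction, and from zygotes to morulae 2 Hoxb bins and 1 Hoxc bin were earlier and 3 Hoxd bins later (17.6% and 19.3%). Summed over all 14 comparisons made here, 31 of 196 cluster bins passed, which is 15.8%, and 15.4% of all bins did. At that threshold the Hox bins differed about as often as bins at large.

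**Figure D2:**
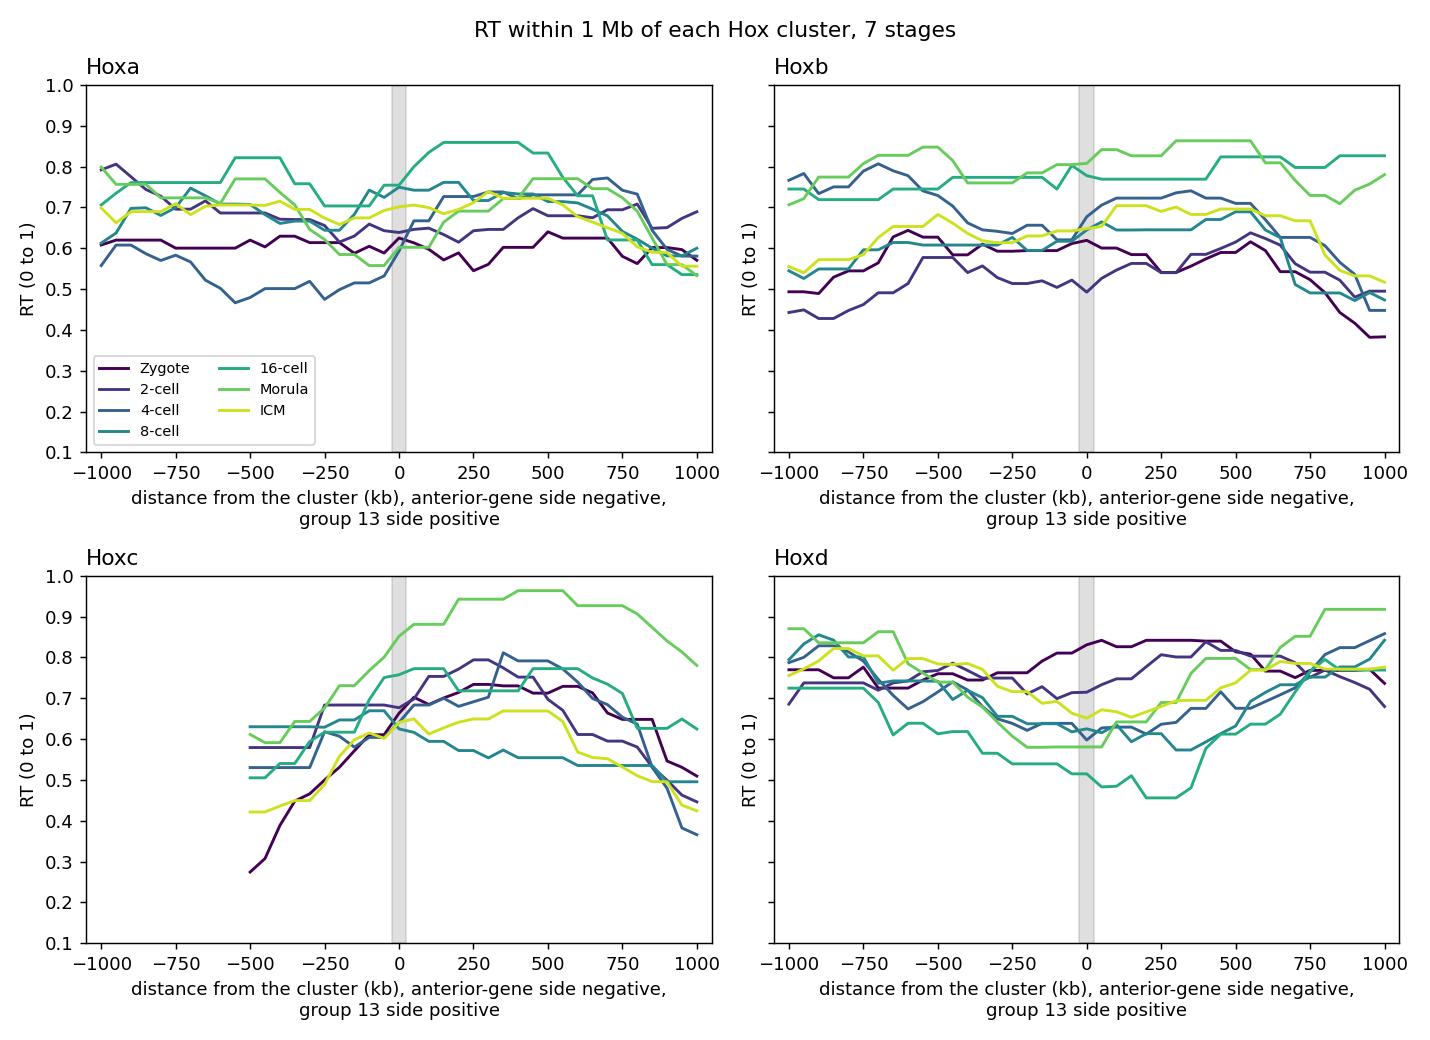
RT within 1 Mb of each cluster at the 7 stages, one line per stage. The x axis is the distance from the cluster in kb, with the side of the anterior genes negative and that of the group 13 genes positive, the grey band at 0 is the mean of the cluster bins and the y axis is RT. Around Hoxd the zygote line is high at the cluster (0.831). The 4-cell to morula lines are lower at the cluster than far out on both sides. In 8-cell and 16-cell embryos the lowest bin lies on the group 13 side, not at the cluster. Hoxc lines stop at 500 kb on the anterior side because bins farther out lacked values in some groups.

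The landscape around Hoxd differed between stages. The cluster lies between large stretches that hold the enhancers of digits and limbs. In zygotes it stood above its distant surroundings, with RT 0.831 against 0.762 on both sides at 750 to 1000 kb. In the other one-cell groups it did not stand above both sides. At that distance RT was 0.715 on the group 13 side and 0.737 on the anterior side in IVF zygotes (cluster 0.617), 0.676 and 0.783 in parthenotes (0.611), 0.709 and 0.803 in maternal pronuclei (0.733) and 0.912 and 0.910 in paternal pronuclei (0.639). In 2-cell embryos it was 0.732 and 0.727 against 0.715. In morulae the same distances stood at 0.918 on the group 13 side and 0.849 on the anterior side and the cluster at 0.581. The 4-cell (0.831 and 0.811 against 0.598), 8-cell (0.788 and 0.825 against 0.625), 16-cell (0.774 and 0.725 against 0.515) and ICM values (0.772 and 0.792 against 0.651) also put the cluster below both sides at that distance. In 8-cell embryos the lowest bin of the window was not in the cluster but 300 kb off on the group 13 side (0.573). In 16-cell embryos it lay 250 kb off on that side (0.456). The nearest neighbours of Hoxd had values close to the cluster, except Mtx2 in paternal pronuclei (0.868 against 0.639). Evx2, a homeobox gene 8.75 kb beyond Hoxd13, lies in the bin of Hoxd13, and Mtx2, a mitochondrial import gene 60.7 kb beyond Hoxd1, had 0.810 in zygotes and 0.581 in morulae. The highest RT within 1 Mb in morulae was 0.918, reached 950 kb off on the group 13 side in Chn1. The mean at 750 to 1000 kb on that side was 0.918 too, so Chn1 does not mark a peak. In zygotes the highest RT was 0.842. It was shared by the bin of Hoxd13 and a bin 300 kb off on that side without a protein-coding gene.

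Hoxc lay on a slope in zygotes and morulae, but not in every group. Flank means on the anterior and group 13 sides were 0.471 and 0.676 in zygotes and 0.678 and 0.909 in morulae. They were 0.631 and 0.657 in 2-cell embryos, 0.641 and 0.549 in 8-cell embryos and 0.363 and 0.351 after alpha-amanitin. On the group 13 side of Hoxc, RT in morulae reached 0.963 at 500 kb, over Aaas and the bone factor Sp7. On the anterior side, toward the end of chromosome 15, it stood at 0.591 at 350 kb. In zygotes the latest bin with values was 0.274 at 450 kb on the anterior side, over Pde1b and Ppp1r1a. Smug1, a uracil-DNA glycosylase and the nearest gene on the anterior side, had 0.571 in zygotes and 0.731 in morulae, and Calcoco1, the nearest on the other side, 0.714 and 0.942. Hoxb lay in a broad early stretch with flanks of 0.809 on the group 13 side and 0.789 on the anterior side in morulae, close to the cluster (0.808). Its neighbours Ttll6 and Skap1 were at 0.825 and 0.773 there. Hoxa had in morulae 0.581 in the nearest 250 kb on the anterior side and 0.650 on the group 13 side, and its neighbours Skap2 and the homeobox gene Evx1 were at 0.609 and 0.602.

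Along a cluster the genes differed little. States were called after smoothing over 15 bins, more than the 3 to 5 of a cluster, so the values of its genes are not independent of each other. The range among the genes of a cluster had a median of 0.0275 over the 56 pairs of cluster and group and was over 0.1 in 3 of them, while the clusters of a group differed by a median of 0.211. The widest range was that of Hoxc in maternal pronuclei, with 0.712 at Hoxc12 and Hoxc13 and 0.585 at the other Hoxc genes. Hoxb13, which stands apart from the rest of its cluster, had 0.583 against 0.644 for Hoxb9 in zygotes and 0.715 against 0.773 in 16-cell embryos. Hoxa13 had 0.650 in 4-cell embryos and Hoxa2, at the other end, 0.549. In 60 of 659 cells the 5 Hoxb bins held both states (9.1%), against 8.92% of all windows of 5 bins. For the clusters of 3 bins it was 22 of 660 cells for Hoxa, 36 of 660 for Hoxc and 22 of 657 for Hoxd (3.33, 5.45 and 3.35%), against 4.46% of all windows. When the state did change inside a cluster, the group 13 end was the replicated one in 18 of 22 cells at Hoxa, 27 of 36 at Hoxc, 31 of 60 at Hoxb and 12 of 22 at Hoxd. These cells were pooled over the 14 groups. The direction of such changes in other windows was not computed, so the counts do not set Hoxa and Hoxc apart from other bins.

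**Figure D3:**
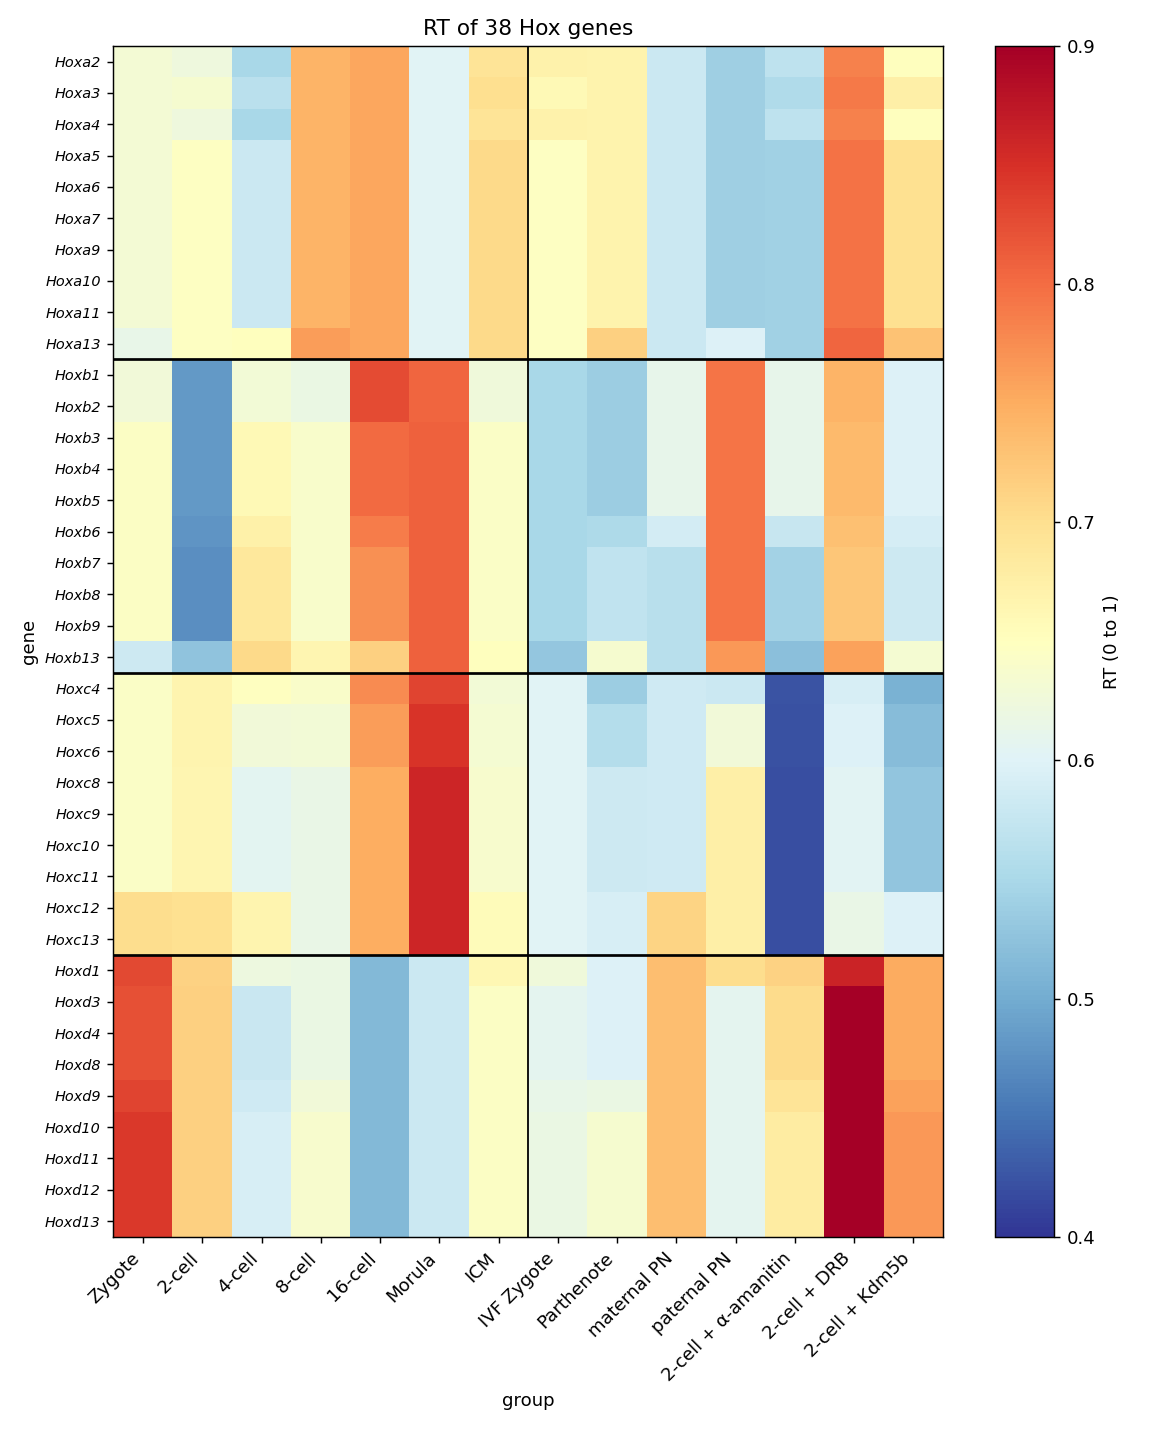
RT of the 38 Hox genes (rows, in number order within each cluster) in the 14 groups (columns), as colour from 0.4 to 0.9. Black lines part the clusters, and genes of a cluster share nearly 1 colour in each column. Hoxd genes are darkest red in zygotes and after DRB, Hoxb and Hoxc genes in morulae, and Hoxc genes are blue after alpha-amanitin.

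Early in S phase the clusters were replicated in different shares of cells, with intervals that overlap. Of 108 cells with a score of 10 to 35, Hoxb was replicated in 57 (42.9 to 62.5%), Hoxc in 52 (38.4 to 58%), Hoxd in 39 (27.1 to 45.9%) and Hoxa in 37 (25.4 to 44%), where 27.4% of all bins were. Late in S phase, in cells scoring 65 to 90, the shares of Hoxa and Hoxd were the highest. Hoxa was replicated in 199 of 212 cells (89.7 to 96.7%) and Hoxd in 191 of 209 (86.7 to 94.8%), against 177 of 211 for Hoxb (78.2 to 88.6%) and an interval of 76.1 to 86.9% for Hoxc, where 75% of all bins were. The interval of Hoxa does not overlap those of Hoxb and Hoxc, and the interval of Hoxd overlaps both. Early shares also differed within single groups. In 21 early cells of 4-cell embryos Hoxb was replicated in 16 (52.8 to 91.8%) and Hoxc in 15 (47.8 to 88.7%). Hoxa was replicated in 5 of them (8.2 to 47.2%) and Hoxd in 3 (3.0 to 36.3%). The 7 early morula cells were alike, with Hoxc in 5, Hoxb in 4, Hoxd in 1 and Hoxa in 0. Other groups differed, such as 2-cell embryos with Kdm5b mRNA, with Hoxa and Hoxd each in 5 of 9 early cells and Hoxc in 1. Among the 87 early cells outside 4-cell embryos the counts were 41, 37, 32 and 36 for Hoxb, Hoxc, Hoxa and Hoxd, and all their intervals overlapped.

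**Figure D4:**
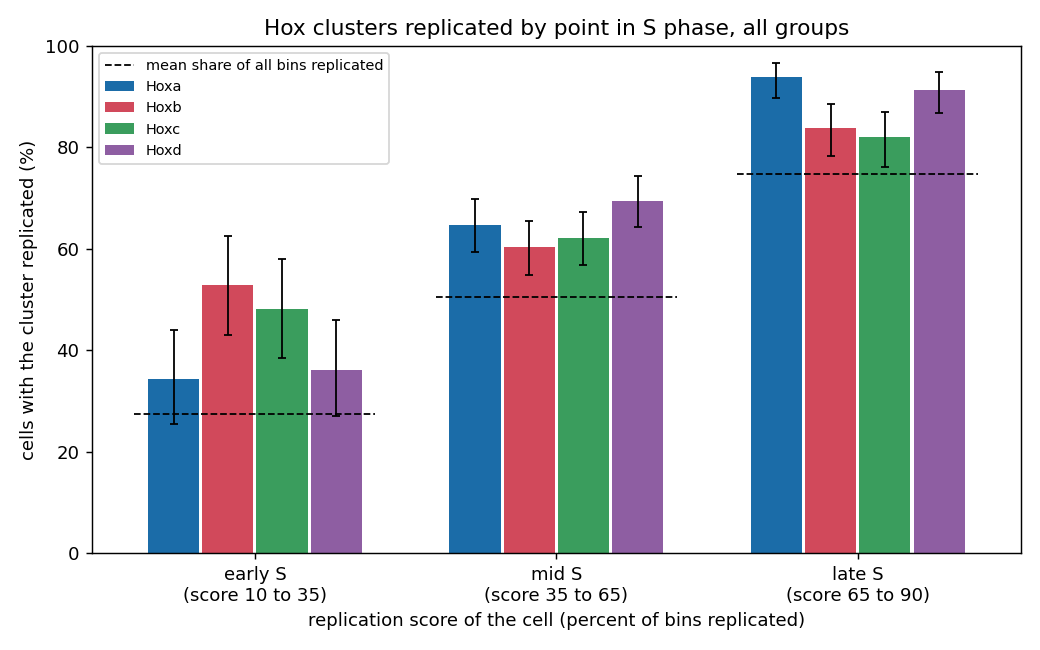
Cells with each Hox cluster replicated (y axis, percent) in early, mid and late S phase, pooled over the 14 groups. Bars are shares of cells, error bars exact 95% binomial intervals and dashed lines the mean share of all bins. Hoxb has the highest share in early S (57 of 108 cells) and Hoxa in late S (199 of 212), and all 4 clusters are above the dashed line in each class.

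Single cells often held a mix of replicated and unreplicated clusters. All 4 were replicated in 201 of the 653 cells with a state for each, none in 20, 1 in 80 and 3 in 191. The cells with 3 had a median replication score of 54.6%, and those with none 36.1%. Pairs of clusters had the same state in 59.2% (Hoxb and Hoxd) to 65.7% (Hoxa and Hoxd) of cells. In 4-cell embryos Hoxb was replicated without Hoxd in 20 of 49 cells and Hoxd without Hoxb in 7. In zygotes Hoxd was replicated without Hoxb in 12 of 53 cells and Hoxb without Hoxd in 5, which is the opposite order. In morulae Hoxb and Hoxc had the same state in 88.6% of 44 cells. How often other bins share a state, and what the separate shares of each cluster alone would give, was not computed. These counts therefore do not set the clusters apart from other bins.

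After DRB, an inhibitor of the kinases that release RNA polymerase II into elongation, the RT of Hoxa, Hoxb and Hoxd was higher than in control 2-cell embryos. Hoxb stood at 0.748 after DRB and 0.493 in control 2-cell embryos, a difference of 0.255 that exceeded 98.7% of all bins. The control value was the lowest Hoxb value of the 14 groups, so part of the distance lies in a low control. Control cells had Hoxb replicated in 6 of 8 at 33 h, but in 1 of 7 at 39 h and 1 of 5 at 40 h. With 1 control hour left out, the control value ran from 0.404 to 0.534. The cluster was replicated in 51 of 67 treated cells (64.1 to 85.7%) and 25 of 54 control cells (32.6 to 60.4%), and the intervals do not overlap, at mean replication scores of 58.8 and 49.3%. The flanks of Hoxb differed by 0.157 on the group 13 side and 0.235 on the anterior side. Hoxd was at 0.887 and 0.715, Hoxa at 0.795 and 0.639 and Hoxc at 0.605 and 0.677, each within overlapping intervals. All 5 Hoxb bins were earlier by 0.2 or more and 0 cluster bins later, where 4.53% of all bins were earlier and 1.3% later. The median of the 38 genes differed by 0.160 between the groups and that of all genes by 0.034. In treated cells Hoxd was replicated without Hoxc in 19 of 67 and Hoxc without Hoxd in 3. At the hours that both groups share, the Hoxb difference was 0.284 and the Hoxd difference 0.172.

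After alpha-amanitin, which binds RNA polymerase II itself, Hoxc was the latest cluster of any group. Its RT was 0.422 against 0.677 in controls, a difference of −0.255 that only 1.38% of bins fell below, and 18 of 42 cells (27.7 to 59%) against 36 of 54 (52.5 to 78.9%) had it replicated, intervals that overlap. The 3 Hoxc bins were later and 0 cluster bins earlier (3.86% and 4.75% of all bins), and Hoxc12 differed most of the genes (−0.277). The flanks differed alike, by −0.306 on the group 13 side and −0.268 on the anterior side, so the whole stretch was later. Hoxd (0.699 against 0.715), Hoxa (0.550 against 0.639) and Hoxb (0.561 against 0.493) were within counting error of control. Both inhibitors were compared with the same control cells, so their differences are not independent. Set side by side, Hoxb was 0.561 after alpha-amanitin and 0.748 after DRB, Hoxa 0.550 and 0.795, Hoxc 0.422 and 0.605 and Hoxd 0.699 and 0.887.

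**Figure D5:**
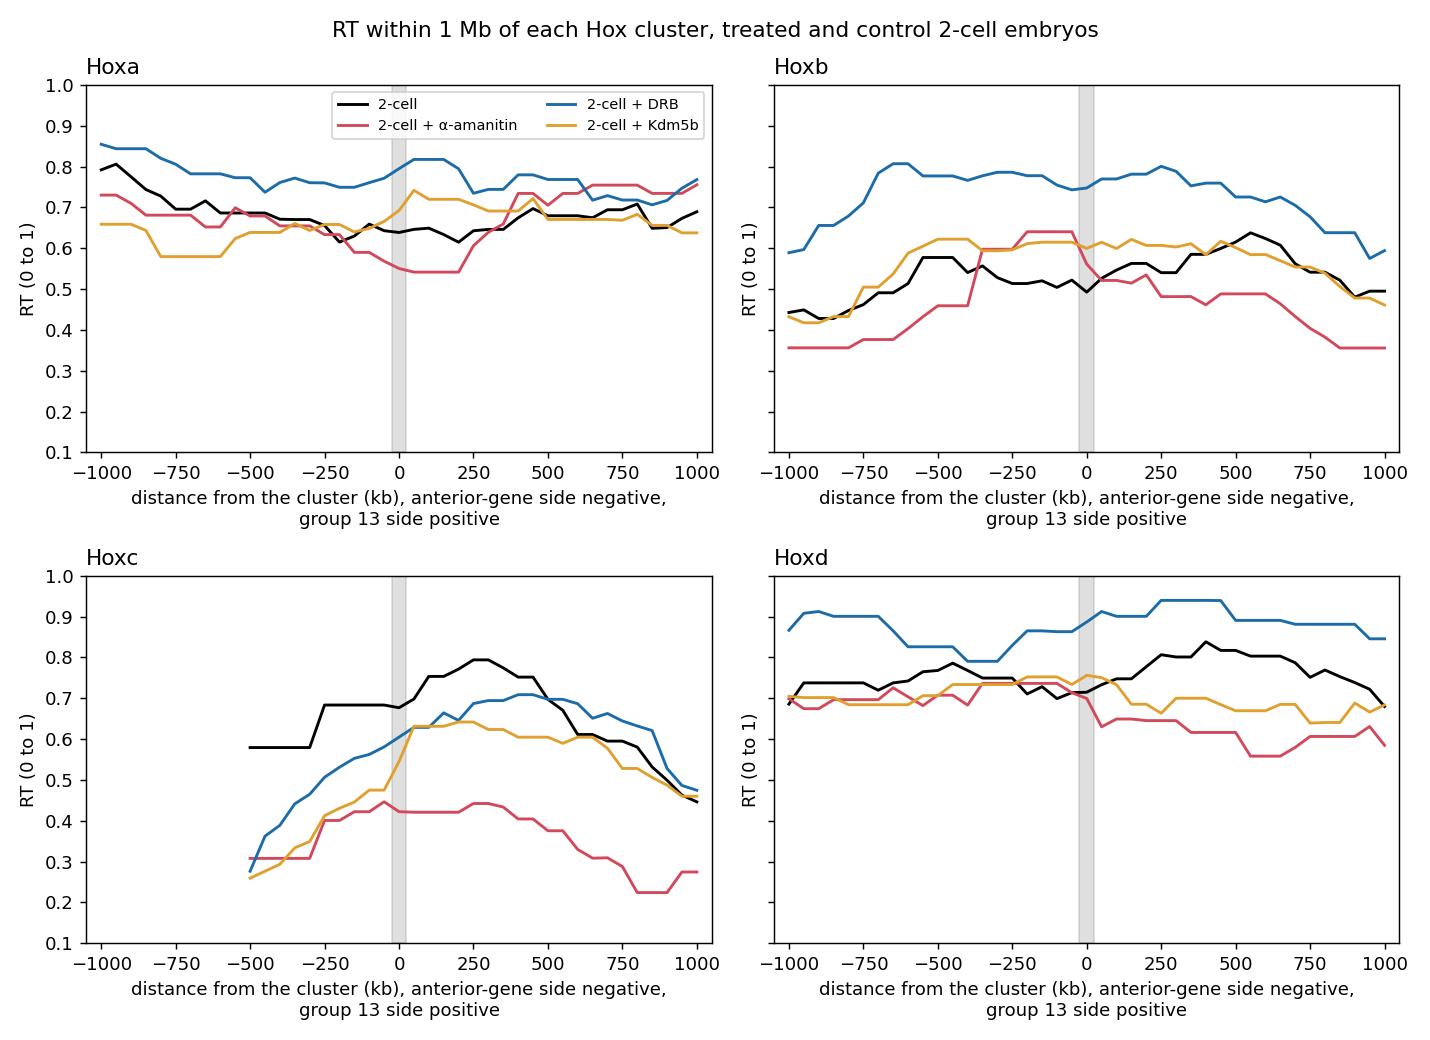
RT within 1 Mb of each cluster in control 2-cell embryos (black) and after alpha-amanitin, DRB or Kdm5b mRNA, drawn as in the plot of the stages. At Hoxb the DRB line lies above control over the cluster (0.748 against 0.493), and at Hoxc the alpha-amanitin line lies below it (0.422 against 0.677).

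After injection of Kdm5b mRNA, Hoxb was at 0.600, Hoxa at 0.692, Hoxd at 0.756 and Hoxc at 0.545, and 0 of 14 bins passed 0.2 in either direction (1.71% of all bins earlier, 1.16% later). The clusters were replicated in 34 of 55, 40 of 56, 42 of 55 and 32 of 56 cells, with intervals that overlap those of controls. The largest difference was that of Hoxc (−0.132). Restricted to the 4 shared hours, with 35 treated and 25 control cells, those of Hoxb and Hoxc were larger, 0.279 against 0.107 and −0.284 against −0.132. Those of Hoxa (−0.0181 against 0.0538) and Hoxd (−0.0379 against 0.0413) were smaller and of the opposite sign.

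In one-cell embryos each sample is 1 embryo or 1 pronucleus, so labels could be permuted. The tested quantity was the state of the cluster in a cell minus its replication score as a fraction, with 100000 two-sided label permutations and adjustment over 12 tests. The labels do not separate litters or collections, so p measures only the spread between these samples. Hoxd was later in IVF zygotes than in natural zygotes, with RT 0.617 against 0.831 and a state above the score by 0.134 ± 0.407 (SD, n = 56) against 0.290 ± 0.319 (SD, n = 53), a permutation p of 0.0288 that did not hold after adjustment (adjusted p = 0.346). The cluster was replicated in 41 of 56 IVF zygotes and 45 of 53 natural ones, all 3 Hoxd bins were later and 0 cluster bins earlier (4.34% and 7% of all bins). For the other clusters the adjusted p of the permutation tests was 0.523 for Hoxb, 0.807 for Hoxc and 0.878 for Hoxa. Parthenotes did not differ detectably from IVF zygotes at any cluster, with RT 0.684 and 0.655 for Hoxa, 0.582 and 0.544 for Hoxb, 0.571 and 0.602 for Hoxc and 0.611 and 0.617 for Hoxd, adjusted permutation p of 0.807 to 0.893 and 0 of 14 bins past 0.2 (1.94% of all bins earlier, 4.21% later).

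Between the pronuclei Hoxb had the widest gap, with RT 0.583 in maternal and 0.783 in paternal ones. Both pronuclei of a zygote were collected in the study, and the label permutation does not use that pairing. The state lay −0.0372 ± 0.552 (SD, n = 20) from the score in maternal and 0.217 ± 0.428 (SD, n = 17) in paternal pronuclei, and the permutation test gave p = 0.131 (adjusted p = 0.523). It was replicated in 11 of 20 maternal (31.5 to 76.9%) and 14 of 17 paternal pronuclei (56.6 to 96%). Of the cluster bins, 3 Hoxb bins were later in maternal pronuclei and 0 earlier, where 10.4% of all bins were later and 12.7% earlier. Hoxd was at 0.733 and 0.639, Hoxa at 0.581 and 0.559 and Hoxc at 0.627 and 0.644 in maternal and paternal pronuclei (adjusted permutation p = 0.878 for each).

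Lists of related genes are described by their counts and medians, with no test. The TALE cofactors that bind DNA with Hox proteins had a median of 0.571 in zygotes and 0.642 in morulae over 9 genes, against 0.563 and 0.733 for all genes. Meis1 was among the latest of them in morulae (0.347), while Pknox1 (0.869) and Pbx3 (0.845) were the earliest. From 2-cell embryos to morulae 4 of the 9 were earlier by 0.2 and 1 later, where 47.6% of all protein-coding genes were earlier and 3.43% later. Of 21 Polycomb and Trithorax genes that act on Hox chromatin, all 21 had an RT of 0.5 or more in morulae and 10 in zygotes, where 82% and 63.6% of all genes did. Rnf2 (0.927) and Suz12 (0.922), of Polycomb complexes, were the earliest in morulae, and the adjacent Cbx2 and Cbx8 (both 0.525) the latest. After DRB 2 of the 21 were earlier and 1 later (5.11% and 1.01% of all genes), and after alpha-amanitin 0 were earlier and 4 later (1.88% and 7.62%).

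The 5 ParaHox and Cdx genes, the sister set of the Hox clusters, had a median of 0.751 in zygotes and 0.812 in morulae. Gsx1 (0.863) and Pdx1 (0.812), which lie side by side, led in morulae, and Cdx1 (0.767) and Gsx2 (0.641) came last. Among 66 other homeobox genes the median was 0.613 in zygotes and 0.656 in morulae, and 16 were earlier and 7 later in morulae than in 2-cell embryos, against the 47.6% and 3.43% of all genes. Nkx2-3 (0.891) was among the earliest of them in morulae and Irx6 (0.170) and Irx5 (0.189) the latest. The 38 Hox genes, with 10 earlier and 0 later in that comparison, had all 10 in Hoxb.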

How the data were processed

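Per the submitters' processing notes, the authors aligned reads to GRCm38 (mm10) with Bowtie2 2.3.5 and used SAMtools 1.9 and bedtools 2.29.0. By their methods they kept reads of mapping quality 20 or more, divided counts in 50 kb bins by the mean over cells of the same stage, smoothed them with a running median of 15 bins and called each bin replicated or not. The deposited values are these binary states, one column per cell, and carry no read depth. A bin that all cells of a stage treat alike is flattened by that division. Of 733 cells with states, 714 scored 10 to 90 and 661 were used after the quality control listed by the study, 219 of which had no entry there. Samples without states were not analysed here.

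RT was computed per group as the mean over 16 overlapping score windows 35 points wide, and a difference of 0.2 was the call for bins and genes. Group membership followed the labels. Cells of a group were 1 sample with no test, except one-cell embryos, compared by label permutation, and stages, by exact permutation. The scripts were tested on simulated data. The named genes were the 38 members, the nearest other protein-coding gene on each side of a cluster, in each list the 2 genes highest and the 2 lowest in RT in morulae and the genes of the earliest and latest bin within 1 Mb at a stage, and some of these are not reported here. The members and lists were chosen with earlier results of these data known. Python 3.11.15, NumPy 2.4.6, pandas 2.3.3, SciPy 1.17.1 and Matplotlib 3.10.9 were used. By the study's methods both pronuclei of a zygote were collected. Pronuclei share 10 numbers, and the deviations of same-numbered pairs correlated between −0.0290 and 0.0816. Such correlations cannot show whether a shared number marks 1 zygote. The main test did not treat the pronuclei as paired, and a test with the number as a block is given below.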

Additional observations from a re-analysis of the deposited data

How the results depend on the processing

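The count of cluster bins past the difference threshold was 31 of 196 and became 100 at a threshold of 0.1, where 46.1% of all bins passed. Using all deposited cells kept every cluster level within its counting error, and so did using the bins that lie wholly inside a cluster. The raw share of cells moved 1 level past it, Hoxd in IVF zygotes (0.744 against 0.617). In one-cell embryos no test passed in any setting. With scores of 30 to 70 only, 5 differences changed sign, those of parthenotes from IVF zygotes at Hoxb (−0.0476), Hoxc (−0.0331) and Hoxd (0.0105) and those of maternal from paternal pronuclei at Hoxa (−0.0182) and Hoxc (0.110). With the replicate number as a block for the pronuclei, by exact permutation over 10 pairs and 9 at Hoxd, the difference changed sign at Hoxc (0.131) and Hoxd (−0.0522) and not at Hoxa (0.0979) and Hoxb (−0.169), with adjusted p = 0.734 each. The cause was not tested. Leaving out 1 collection hour moved 5 levels past counting error, all in 16-cell embryos, and left 263 within it. Without the hour of 80 h, which leaves 5 cells, their RT was 0.433 for Hoxa and 0.236 for Hoxb and for Hoxc. Limits are the number of cells, the unknown embryo of each blastomere, and the scaling by stage mean.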
